A study of Mus musculus with 4 samples.

Results

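The 7 genes described here make, bind, sense and remove retinoic acid: Aldh1a2, Cyp26b1, Rara, Rarb, Rarg, Crabp1 and Crabp2. They were chosen by name as genes of the retinoic acid pathway, and each has 1 probe set, defined by its Entrez gene, among the 16492 gene probe sets of the table. Their transcripts were measured on 4 Affymetrix mouse genome arrays with RNA of whole limbs from embryos at stage E12.5, fore- and hindlimbs together. On 2 arrays the embryos carried a human SHOX transgene, and on the other 2 they were wildtype littermates. The transgene holds the SHOXa cDNA, which encodes a homeodomain transcription factor, under the rat Col2a1 promoter and enhancer. By in situ hybridization the study saw its transcript at E12.5 around the cartilage anlagen, and describes the pattern as resembling that of Col2a1. The labels give the strain of all embryos as C57BL/6. The study describes founders from C57BL/6 x DBA/2 hybrid eggs that were mated with C57Bl/6 mice and kept as heterozygous lines, and does not say which line was put on the arrays. Each array carried RNA pooled from 2 to 4 littermates, and each of the 2 hybridization experiments compared 1 transgenic with 1 wildtype pool. An error between the 2 pools of a genotype is therefore a spread between pools and not between embryos. The human transcript itself was not measured here.

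Retinoic acid is made from vitamin A by successive oxidation, and retinaldehyde dehydrogenases such as Aldh1a2 carry out the last step. It enters the nucleus and binds the receptors RAR alpha, beta and gamma, which pair with RXR receptors on DNA and switch from repression to activation when the ligand is bound. Cyp26 enzymes oxidize it and so end the signal. In the limb bud, Cyp26b1 clears retinoic acid from the distal mesenchyme, the body flank and later the tissue between the digits hold Aldh1a2, and Rarb is a classical direct target of the pathway. The genes lie on different chromosomes (RefSeq, GRCm38.p6), except Aldh1a2 at chr9:71215789-71296243 and Crabp1 at chr9:54764748-54773110. Cyp26b1 lies at chr6:84571414-84593908, Rara at chr11:98927800-98974942, Rarb at chr14:16430839-17082331, Rarg at chr15:102234938-102257522 and Crabp2 at chr3:87948693-87953372.

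RAR and RXR pairs bind direct repeats of a short unit, and one such repeat was found in the promoter windows of the members. RefSeq windows of 250 bases before to 50 after a start were found for 6 of the 7 genes (10 windows). They were searched on both strands for the unit AGGTCA and for its variants, which were AGTTCA, further GGGTCA, and last the form GGTTCA, in any pair that runs in the same direction with 1, 2 or 5 bases between. The 1 match belonged to Rarb, at a start inside the annotated gene. It is shown because Rarb is the member known for this type of element. The sequence is that of the strand of the gene (minus strand, GRCm38.p6, chr14:16575477-16575576), the last 100 bases before the start, and the capitals mark both units of the repeat.
Rarb: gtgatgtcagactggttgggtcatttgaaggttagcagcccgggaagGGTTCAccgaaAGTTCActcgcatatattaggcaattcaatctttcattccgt
The first unit is GGTTCA, and after 5 further bases the unit AGTTCA follows, from base -53 to base -37 relative to the start. A repeat with that spacing was found in 32 of all 32851 windows (0.0974%), and with any of the 3 spacings in 193 (0.588%). A single unit alone was present in 43.7% of windows, and also in windows of Rara and Rarg. Of the other pathway genes named below, a window of Cyp26a1 held the repeat with 5 bases between. TAAT or ATTA, the core that many homeodomain proteins recognize, was present in 58% of windows, among them those of Rarb, Crabp1 and Rara. A match describes these letters only and is not evidence of binding.

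The 4 arrays split by experiment far more than by genotype. Over all probe sets the arrays of an experiment correlated at 0.998 and 0.997, and arrays of the same genotype across experiments at 0.987 (wildtype) and 0.986 (transgenic). The medians of the arrays lay between 7.81 and 7.85 on the log2 scale. Sex also differed between the pools: Xist, the transcript of the inactive X chromosome, stood at 9.62 and 9.36 in the wildtype pools and at 6.58 and 6.42 in the transgenic pools of experiments 1 and 2. In the transgenic pools Eif2s3y was higher by 0.83 and Uty by 0.49 on the log2 scale, both genes of the Y chromosome, and all 3 sex-linked genes passed an adjusted p under 0.05 in limma with the experiment as a replicate block. Sex and genotype cannot be told apart in any value below. The limb mesenchyme markers Prrx1, Tbx5, Tbx4 and Pitx1 had values on every array, as all probe sets had. This does not show that they were expressed, because signal over background is not known here.

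**Figure D1:**
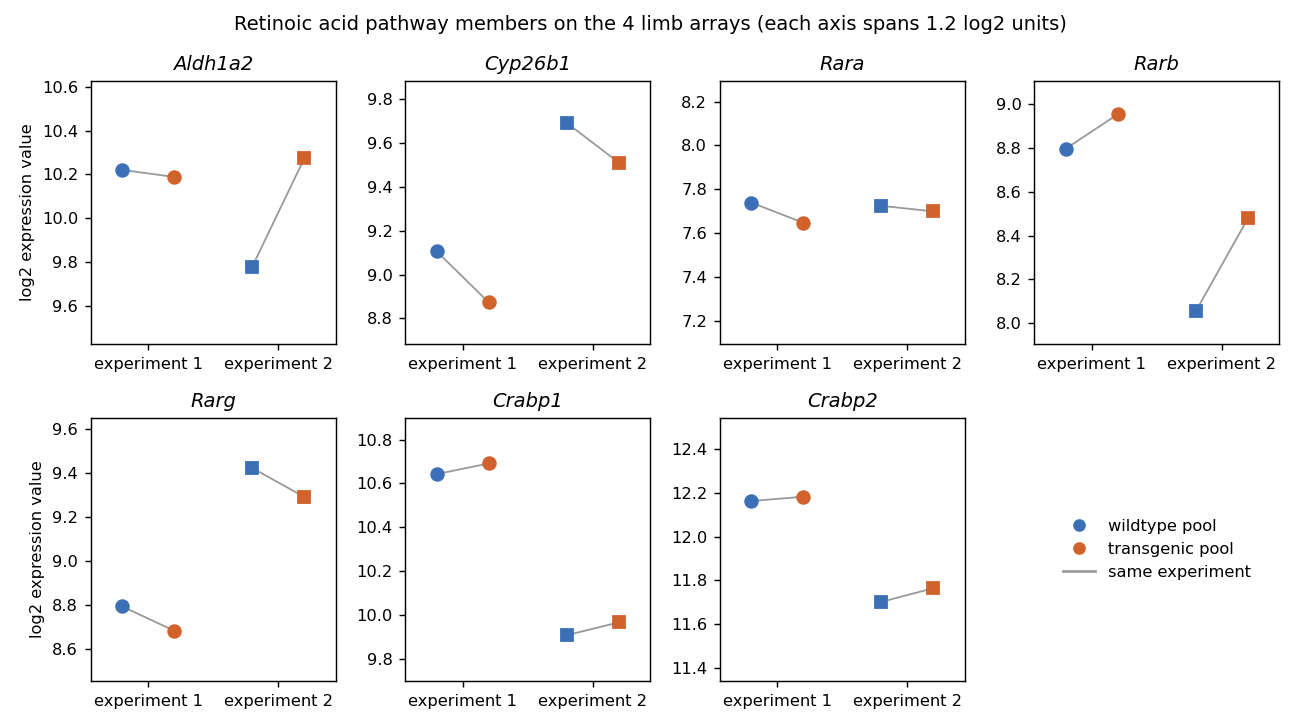
Log2 expression value (vertical axis, each spanning the same 1.2 log2 units) of the 7 members on the 4 limb arrays, with circles for experiment 1, squares for experiment 2 and a line joining the wildtype and the transgenic pool of one experiment. Cyp26b1 and Rarg sat higher in experiment 2, Rarb, Crabp1 and Crabp2 sat higher in experiment 1, and the wildtype pool of experiment 2 was the lowest of Aldh1a2, at 9.78.

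The enzyme that makes retinoic acid had 1 low array. Aldh1a2 stood at 10.22 in the wildtype and 10.19 in the transgenic pool of experiment 1, and at 9.78 and 10.27 in those of experiment 2. The wildtype pool of experiment 2 was low and the other 3 pools lay close together, so the genotypes overlapped. The SD over the 2 pools was 0.06 for the transgenic and 0.31 for the wildtype genotype. The log2 difference was 0.23 (SE 0.17, 95% interval -0.22 to 0.68, adjusted p = 1 in limma), made up of -0.03 within experiment 1 and 0.49 within experiment 2. Without the wildtype pool of experiment 2 the difference was 0.01. Without that of experiment 1 it was 0.45. Both fits had no term for the experiment, so the pools were not compared within their pairs. The call rule used here was a log2 difference beyond 0.2 with an unadjusted p under 0.05 in limma. The study used the same sizes but asked for them in both experiments, which is not part of this rule.

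The enzyme that removes retinoic acid was lower in the transgenic pool of both experiments. Cyp26b1 had log2 values of 9.11 (wildtype) and 8.87 (transgenic) in experiment 1, and of 9.69 and 9.51 in experiment 2. The pair of experiment 2 lay above the pair of experiment 1, so the genotypes overlapped although the wildtype pool was higher in each pair. The genotype difference was -0.21 (SE 0.30, 95% interval -1.01 to 0.60), with -0.23 and -0.18 within the experiments. Fits with 1 array left out had no term for the experiment, so part of the experiment difference entered the genotype difference. The genotype difference was then 0.09 without the wildtype pool of experiment 2 and 0.11 without the transgenic pool of experiment 1.

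Among the receptors, Rarb was higher in both transgenic pools than in the wildtype pool beside it. Rara and Rarg were lower in both, by smaller amounts. Rarb, the receptor gene that retinoic acid itself induces, stood at 8.80 (wildtype) and 8.95 (transgenic) in experiment 1 and at 8.06 and 8.48 in experiment 2. The transgenic value was the higher one of each pair, but that of experiment 2 lay below the wildtype value of experiment 1, so the genotypes overlapped. The genotype difference was 0.29 (SE 0.30, 95% interval -0.53 to 1.11), with 0.16 within experiment 1 and 0.42 within experiment 2. Leaving out the wildtype pool of experiment 2 gave -0.08, and leaving out that of experiment 1 gave 0.66. Both fits ignored the pairing, so both values hold part of the difference between the experiments.

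Rara, the most widely expressed receptor of the family, was the least variable member. It stood at 7.74 and 7.72 in the wildtype pools of experiments 1 and 2, and at 7.65 and 7.70 in the transgenic pools. Both transgenic values lay below both wildtype values, by a difference of -0.06 (SE 0.07, 95% interval -0.26 to 0.14). Rara was the 1 member of 7 whose genotypes did not overlap, while 18.4% of all probe sets had genotypes that did not overlap.
Rarg, the receptor found in limb mesenchyme and cartilage precursors, had log2 values of 8.79 (wildtype) and 8.68 (transgenic) in experiment 1 and of 9.42 and 9.29 in experiment 2. Both pools of experiment 2 were above both pools of experiment 1. The genotype difference was -0.12 (SE 0.30, 95% interval -0.94 to 0.69), with -0.11 within experiment 1 and -0.13 within experiment 2. A larger absolute difference was found in 8.89% of all probe sets.

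The binding proteins did not follow genotype. Crabp1, which holds retinoic acid in the cytoplasm and is linked to its breakdown, stood at 10.64 (wildtype) and 10.69 (transgenic) in experiment 1 and at 9.91 and 9.97 in experiment 2. Crabp2, which carries retinoic acid to the receptors, stood at 12.16 and 12.18 in experiment 1 and at 11.70 and 11.76 in experiment 2. For both genes the 2 pools of an experiment were nearly equal and the experiments were far apart. The genotype differences were 0.05 (SE 0.36) for Crabp1 and 0.04 (SE 0.22, 95% interval -0.55 to 0.63) for Crabp2.

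With genotype as the only term of the fit, 0 of the 7 members passed the call rule, which 31 of all probe sets (0.188%) passed. The smallest unadjusted p of a member was that of Aldh1a2 in limma, 0.235, and the adjusted p was 1 for all 7. Over all probe sets, 0 passed an adjusted p under 0.05 in this fit and 32 had an unadjusted p under 0.05. Differences of up to 0.68 for Aldh1a2 and 1.11 for Rarb lay inside the 95% intervals, so this fit does not tell changes of that size from no change.

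With the experiment as a replicate block, 3 of the 7 members passed the call rule: Aldh1a2 and Rarb were higher and Cyp26b1 was lower in the transgenic pools. With the block 256 of all probe sets (1.55%) passed it, 203 of them higher (1.23%) and 53 lower (0.321%) in the transgenic pools. The block left the differences as they were and narrowed the intervals, to between 0.15 and 0.43 for Rarb, between 0.05 and 0.41 for Aldh1a2 and between -0.33 and -0.08 for Cyp26b1. This fit had 1 residual and 16.4 prior degrees of freedom, so the widths rest mostly on a variance shared over all probe sets. They do not show the spread of the 2 pairs: the interval of Aldh1a2 held neither of its values within the experiments, -0.03 and 0.49. The adjusted p in limma with the block was 0.0985 for Rarb, 0.220 for Cyp26b1 and 0.447 for Aldh1a2, so 0 of 7 members passed 0.05, which 45 of all probe sets (0.273%) did. For Rarg, Crabp1, Crabp2 and Rara the blocked intervals reached or crossed 0 and stayed within -0.24 and 0.17. Absolute differences larger than that of Rarb were found in 0.358% of all probe sets, and larger than those of Aldh1a2 and Cyp26b1 in 0.831% and 1.35%. In whole limb RNA, fewer cells of a type and less RNA per cell cannot be told apart in any of these differences.

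**Figure D2:**
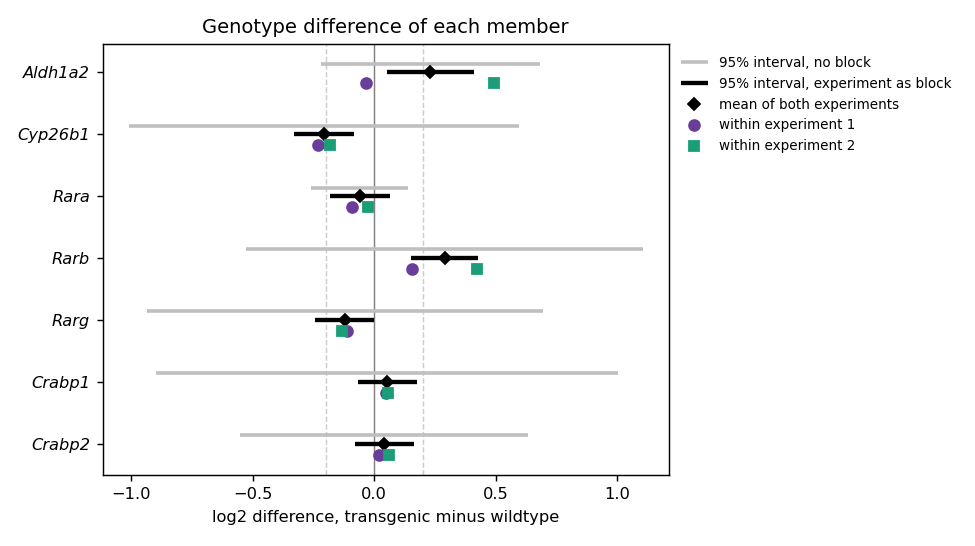
Log2 difference of each member, transgenic minus wildtype (horizontal axis), with diamonds for the mean of both experiments, grey bars for the 95% interval without the block, black bars for that with the experiment as a block, and coloured points for the difference within each experiment. Dashed lines mark 0.2 in either direction. Both points of Rarb lay above 0 and both of Cyp26b1 below it, and the points of Aldh1a2 lay at -0.03 and 0.49.

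The direction within the experiments was the same for 6 of the 7 members, against 52.9% of all probe sets, with Aldh1a2 as the exception. A size beyond 0.2 in both experiments, as the study asked for, was reached by 0 members, the 3 that passed with the block included. The share of all probe sets that reached it was not counted, so this count is a description only. Cyp26b1 was at -0.23 and -0.18 and Rarb at 0.16 and 0.42. The median absolute genotype difference of the members was 0.12, against 0.04 over all probe sets, and their median signed difference was 0.04.

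The wildtype pool of experiment 2 was the lowest array for 4 of the 7 members (Aldh1a2, Rarb, Crabp1 and Crabp2), against 22.2% of all probe sets. For Rarb, Crabp1 and Crabp2 both pools of experiment 2 lay below both pools of experiment 1. Of the members, only in Aldh1a2 did this pool alone stand low. Aldh1a2 is a known gene of mesothelium and flank mesenchyme, tissue that adjoins the base of the limb. All 6 of 6 measured markers of mesothelium and body wall had their lowest value in that pool, in a list chosen with earlier results of these data known, so the count is a description. So did 5 of 6 markers of skeletal muscle and 3 of 4 of endothelium, tissues inside the limb. The experiments did not overlap for 5 of 6 of the muscle and 2 of 4 of the endothelium markers, beside 66.4% of all probe sets. The linear values of the body wall markers were summed, which gives the brighter genes more weight. The log2 of this sum was 9.44 in the wildtype pool of experiment 2. It was 10.02 in the wildtype and 10.20 in the transgenic pool of experiment 1, and 10.12 in the transgenic pool of experiment 2.

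Wt1, a transcription factor of the mesothelium, stood at 7.61 (wildtype) and 7.58 (transgenic) in experiment 1 and at 7.05 and 7.84 in experiment 2, with the arrays in the same order of height as for Aldh1a2. Upk3b, a surface protein of mesothelial cells, stood at 7.42, 7.41, 6.76 and 7.47 in the same order of pools. Tcf21, a transcription factor of splanchnic and body wall mesenchyme, had the widest spread, at 8.07, 8.51, 6.42 and 8.17. For all 3 genes the wildtype pool of experiment 2 was lowest and the other pools were closer to each other than to it. The other markers, Msln, Lrrn4 and Krt19, ranged over 0.24, 0.40 and 0.25 log2 units. In the same order of pools Msln stood at 6.65, 6.77, 6.53 and 6.66, and Lrrn4 at 6.90, 7.04, 6.64 and 6.92. Krt19 stood at 7.53, 7.73, 7.48 and 7.63, with both wildtype pools below both transgenic pools. Of the list, 0 of 6 passed the call rule without the block (0.188% of all probe sets did) and 4 of 6 passed with it, all higher in the transgenic pools (1.23% of all probe sets were). In the same blocked fit Tcf21 alone of the 6 had an adjusted p under 0.05, as 0.273% of all probe sets had. The part of the amount of body wall tissue in the Aldh1a2 and Rarb values was not tested.

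**Figure D3:**
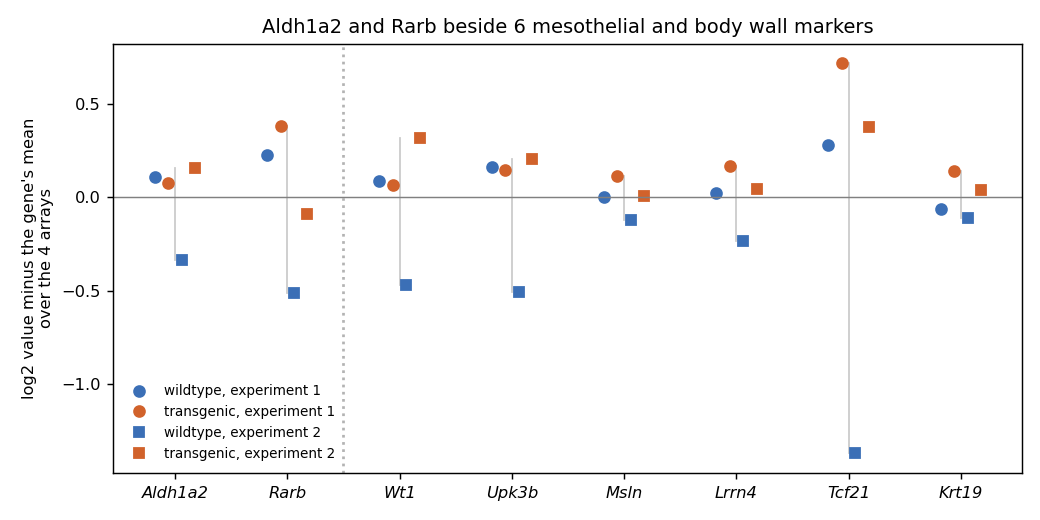
Log2 value minus the mean of each gene over the 4 arrays (vertical axis) for Aldh1a2 and Rarb, left of the dotted line, and for 6 markers of mesothelium and body wall, with circles for experiment 1, squares for experiment 2, blue for wildtype and orange for transgenic pools. The blue square, the wildtype pool of experiment 2, was the lowest point of all 8 genes.

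The experiment moved the members more than the genotype did. At an adjusted p under 0.05 in limma, with genotype in the fit, 5 of the 7 members differed between the experiments, and 39.2% of all probe sets did. Crabp1, Rarb and Crabp2 were higher in experiment 1 (19.1% of all probe sets were) and Cyp26b1 and Rarg were lower in it (20.1%). The values of the 2 experiments did not overlap for these 5 members, and 66.4% of all probe sets showed no overlap. The median absolute difference was 0.61 over the members and 0.11 over all probe sets, of which the middle 50% lay between -0.12 and 0.11.

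Crabp1 differed most, by 0.73 on the log2 scale or 1.66-fold (95% interval 0.61 to 0.85, adjusted p = 3.79e-08), and 0.994% of all probe sets had a larger absolute difference. The difference was 0.73 between the wildtype and 0.72 between the transgenic pools. Crabp2 moved the same way by 0.44 or 1.36-fold (95% interval 0.32 to 0.56, adjusted p = 1.08e-05). Both genes for cytoplasmic binding proteins were thus higher in experiment 1 in both genotypes.

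Rarg was lower in experiment 1 by 1.54-fold, a log2 difference of -0.62 (95% interval -0.74 to -0.50, adjusted p = 2.35e-07). Cyp26b1 was lower by 1.53-fold, a log2 difference of -0.61 (95% interval -0.73 to -0.49, adjusted p = 2.95e-07). The differences were alike in both genotypes, with -0.63 and -0.61 for Rarg and -0.58 and -0.64 for Cyp26b1, each given for wildtype and then transgenic pools. A receptor and the breakdown enzyme thus lay higher in experiment 2.
Rarb went the other way, 1.52-fold higher in experiment 1, a log2 difference of 0.61 (95% interval 0.47 to 0.75, adjusted p = 1.32e-06). It was 0.74 between the wildtype and 0.47 between the transgenic pools.

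Aldh1a2 and Rara did not pass. The difference of Aldh1a2 was 0.18 (95% interval -0.00 to 0.36, adjusted p = 0.111), from 0.44 between the wildtype and -0.08 between the transgenic pools. Without the wildtype pool of experiment 2, in a fit without genotype, it was -0.07. It passed after the arrays were centred on a common median (0.21, adjusted p = 0.0220) or quantile normalized again (0.15, adjusted p = 0.0451). Rara differed by -0.02 (95% interval -0.14 to 0.10, adjusted p = 0.841). Among the receptors, Rarb, Rara and Rarg therefore lay above, level with and below 0 in the same comparison.

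Markers of cell types differed between the experiments as well, counted here at an adjusted p under 0.05 in limma. Of all probe sets 39.2% did, 19.1% higher and 20.1% lower in experiment 1. Summed levels are again the log2 of the summed linear values of a list. Of the limb mesenchyme markers 6 of 7 were lower in experiment 1. Their summed levels were 12.38 and 12.32 in experiment 1 and 12.73 and 12.71 in experiment 2 (wildtype, then transgenic). Among these markers Tbx4, a factor of the hindlimb, differed by -0.82 and Tbx5, a factor of the forelimb, by -0.74. Of the epidermis markers 4 of 6 were higher in experiment 1, with summed levels of 11.56 and 11.66 against 11.23 and 11.28. The neuron and Schwann cell list had 4 of 6 higher (10.43 and 10.72 against 10.25 and 10.24) and the endothelium list 2 of 4 (10.67 and 10.66 against 10.38 and 10.46). The skeletal muscle list had 4 of 6 higher and 1 lower (13.72 and 13.78 against 13.22 and 13.55), and the erythroid list 1 of 4 higher and 2 lower (15.51 and 15.35 against 15.49 and 15.48). The litters and the hybridization both changed with the experiment, and their parts in the values of the members cannot be told apart.

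**Figure D4:**
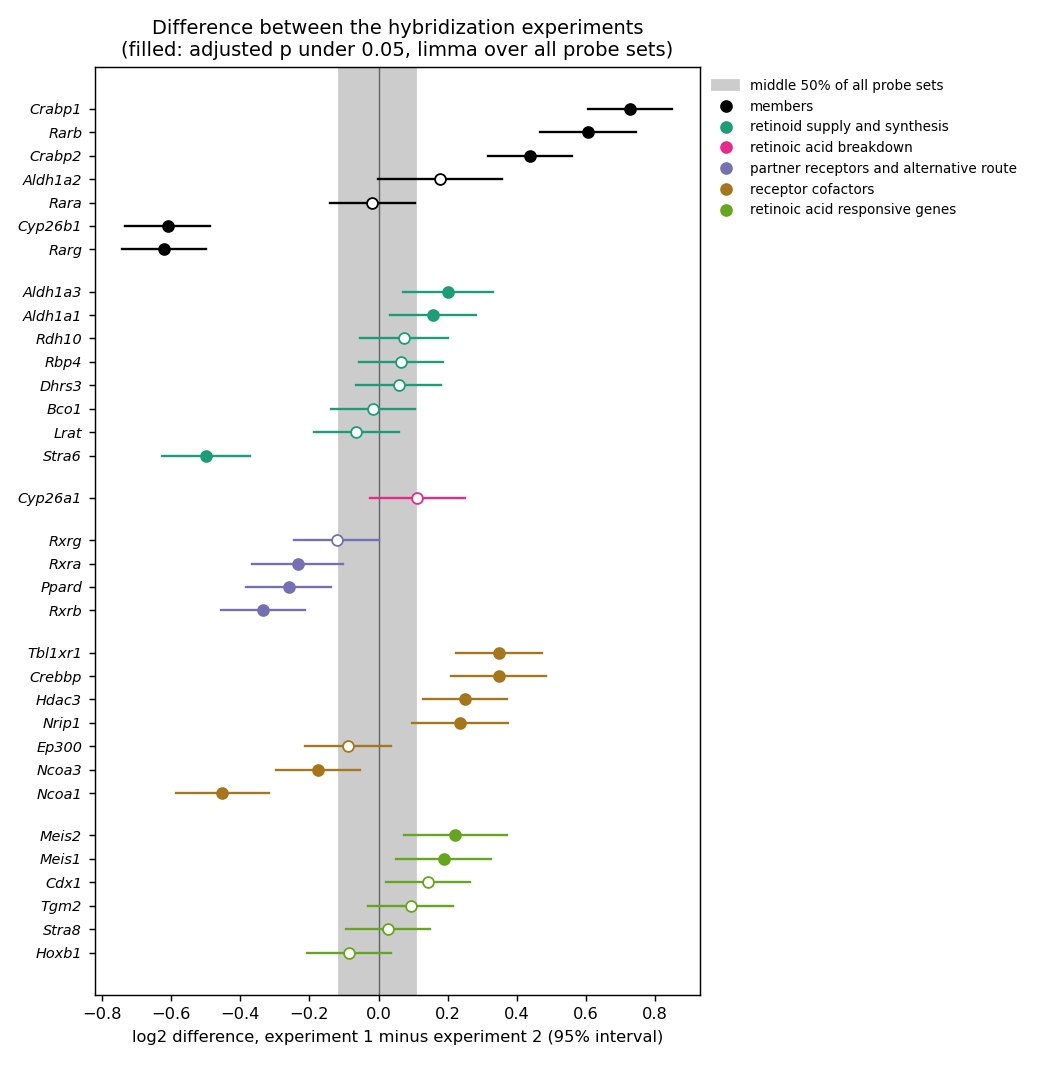
Log2 difference between the experiments, experiment 1 minus experiment 2 (horizontal axis), with 95% intervals as lines, for the 7 members and 26 other genes of the pathway in 5 lists. Filled points passed an adjusted p under 0.05, and the grey band holds the middle 50% of all probe sets, from -0.12 to 0.11. Crabp1, Rarb and Crabp2 lay right of the band and Cyp26b1 and Rarg left of it.

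The rest of the pathway was covered by 5 lists of 33 genes, of which 26 were analysed here. By genotype, 0 of the 26 passed the call rule, both without the block (0.188% of all probe sets did) and with it (1.55%). With shares this low, the count does not set these genes apart from all probe sets. The smallest adjusted p with the block was 0.451, for Ep300, and the smallest unadjusted p in limma without it was 0.138. For 5 of 26 the genotypes did not overlap, a share near the 18.4% of all probe sets. The median absolute genotype difference was 0.07, against 0.04 over all probe sets. By experiment, 14 of 26 passed an adjusted p under 0.05, 8 higher and 6 lower in experiment 1, beside 39.2% of all probe sets. The experiments did not overlap for 20 of 26 (66.4% of all probe sets), and the median absolute difference was 0.17, against 0.11 over all probe sets.

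The genes of retinoid supply and synthesis had genotype differences of at most 0.15 in size. Their median absolute difference was 0.08, against 0.04 over all probe sets. Rdh10, which makes retinaldehyde from retinol, stood at 9.51 and 9.37 in the wildtype pools of experiments 1 and 2 and at 9.56 in both transgenic pools. Aldh1a1 and Dhrs3, a related dehydrogenase and the enzyme that turns retinaldehyde back into retinol, differed by 0.15 and 0.14. Rdh10, Aldh1a1 and Dhrs3 were each higher in the transgenic pool of both experiments. The wildtype pool of experiment 2 was the lowest array for 5 of the 8 genes of this list, against 22.2% of all probe sets.
Between the experiments 3 of 8 passed, near the share of all probe sets (39.2%). Aldh1a1 and Aldh1a3, which can make retinoic acid in place of Aldh1a2, were higher in experiment 1 by 0.16 (adjusted p = 0.0415) and 0.20 (adjusted p = 0.0139). Stra6, the cell surface receptor for retinol carried by its plasma protein, was lower by 0.50 on the log2 scale, with 8.17 and 8.02 in experiment 1 and 8.60 and 8.59 in experiment 2. Stra6 thus had the order of experiments seen for Cyp26b1 and Rarg.

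Cyp26a1, the other measured enzyme of breakdown, did not pass in either comparison. It stood at 7.47 and 7.48 in the wildtype and at 7.69 and 7.45 in the transgenic pools, a genotype difference of 0.09. Among the partner receptors, Rxrb stood at 9.34 and 9.41 in experiment 1 and at 9.67 and 9.74 in experiment 2, with a difference of -0.33. Rxra and Ppard, the latter a receptor of an alternative route for retinoic acid, were lower in experiment 1 too, with differences of -0.23 and -0.26, and the difference of Rxrg was -0.12 and did not pass. All 4 had genotype differences of at most 0.08 in size.

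Cofactors of the receptors went both ways between the experiments, with 4 of 7 higher and 2 lower in experiment 1, beside 19.1% and 20.1% of all probe sets. Ncoa1, a coactivator, was lower, with a difference of -0.45. Tbl1xr1, part of the corepressor complex, and Crebbp, a histone acetyltransferase, were both higher by 0.35. Nrip1, a corepressor that retinoic acid induces, was higher by 0.24, and its lowest value was in the wildtype pool of experiment 2, at 9.05 against 9.34 to 9.44 in the others. The largest genotype differences of the list were those of Ep300 (0.16) and Nrip1 (0.15).

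Of the genes known to respond to retinoic acid, 2 of 6 were higher in experiment 1 and 0 lower, beside 19.1% and 20.1% of all probe sets. The 2 higher ones were homeobox genes of the proximal limb. Meis2 stood at 10.49 (wildtype) and 10.48 (transgenic) in experiment 1 and at 10.10 and 10.42 in experiment 2, an experiment difference of 0.22 (adjusted p = 0.0169). Meis1 stood at 9.92, 9.88, 9.60 and 9.82 in the same order, with a difference of 0.19 (adjusted p = 0.0277). In both genes, as in Aldh1a2, the wildtype pool of experiment 2 was the low one. Hoxb1 differed by -0.12 between the genotypes and Cdx1 by 0.14 between the experiments, and neither passed.

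Rarb and Cyp26b1 had the widest ranges of the members over the 4 arrays, 0.90 and 0.82 log2 units. The genes with a course most like that of Rarb, by Euclidean distance of the 4 values after subtracting the mean of each gene, were Sparcl1 (0.0692), Prss35 (0.0846) and Arl1 (0.0886). Those most like Cyp26b1 were Mbd3 (0.0636), Vps72 (0.0854) and the member Rarg (0.0938). The likeness rests on 4 arrays that fall into 2 experiments.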

How the data were processed

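The authors hybridized pooled limb RNA to Affymetrix mouse genome arrays and used JMP Genomics to log transform the perfect-match values, normalize them by quantiles and fit mixed models, after regrouping the probes by Entrez gene. The deposited values are log2 expression per probe set; the log base was read from their range and from the study's threshold, and the summarising step is not given in the sources used here. Scanner files were not used here. Of 16556 probe sets, 64 controls were left out and 16492 tested without a filter on dim values; 15270 had 1 symbol in the platform annotation, 0 had several and 1222 were unnamed.

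Genotypes were compared with limma 3.58.1 in R 4.3.3 (lmFit, eBayes, Benjamini-Hochberg over all probe sets). The fits held genotype alone, as in the study's methods, or genotype with the experiment as a replicate block. The experiment was tested with genotype in the fit. With an array left out, each fit held only the term that was tested, genotype or experiment. P-values rest on the spread between pools and on a variance shared over all probe sets, with the block mostly on the latter. Residual and prior degrees of freedom were 2 and 2.40 without the block and 1 and 16.4 with it. The pairing rests on the suffix that the titles of 2 arrays share and on the design text, which names 2 experiments with littermates; deviations of paired arrays from their group means correlated at 0.857. Scripts were tested on simulated data.

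The members, the gene lists and the marker lists were chosen with earlier results of these data known. Named genes are the 7 members, Xist and Y-linked genes, the 3 genes of each pathway, interdigital and cartilage list with the largest difference by genotype and by experiment, and the 3 nearest patterns of the members with the widest range. Eif2s3y and Uty were the measured Y-linked genes. The marker genes and Krt8 and Krt18 were chosen after their values were seen. The other genes of the pathway lists are not reported here. Promoter windows and gene positions come from RefSeq tables (GRCm38.p6), which may not be the build of the array definition. Alternatives were centring, repeated quantile normalization, filters at the 25th and 50th percentile of the mean value, an intensity trend, an analysis of variance without moderation, the replicate block, the experiment as the only term, other thresholds and leaving out each array. The block with an adjusted p under 0.05 was added after seeing the data.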

Additional observations from a re-analysis of the deposited data

Results flagged for a closer look

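Aldh1a2, the retinoic acid synthesis enzyme, had genotype differences of opposite sign in the 2 experiments: transgenic minus wildtype was -0.03 on the log2 scale within experiment 1 and 0.49 within experiment 2, a gap of 0.53. With 1 pool of each genotype in each experiment the difference between these values was not tested. The gap rests on the wildtype pool of experiment 2, at 9.78 against 10.19 to 10.27 in the other 3 pools.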

How the results depend on the processing

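Without the block, 0 members passed by genotype, and 3 did with the replicate block. Leaving out 1 array gave 0 to 2, the 2 being Aldh1a2 and Rarb without wildtype replicate 1. Over those 4 settings the genotype difference ran from 0.01 to 0.45 for Aldh1a2, -0.53 to 0.11 for Cyp26b1, -0.080 to 0.66 for Rarb, -0.44 to 0.19 for Rarg, -0.31 to 0.42 for Crabp1, -0.19 to 0.27 for Crabp2 and -0.08 to -0.03 for Rara. Cyp26b1, Rarg, Crabp1 and Crabp2 changed sign without wildtype replicate 2 (0.09, 0.19, -0.31, -0.19) and without transgenic replicate 1 (0.11, 0.18, -0.31, -0.17), and Rarb without wildtype replicate 2 (-0.080). Such a fit leaves 1 genotype with 1 pool, whose spread is assumed to be that of the other. It also has no term for the experiment, so part of the experiment difference enters the genotype value and the passes above. Within experiments 1 and 2 the differences were -0.23 and -0.18 for Cyp26b1, -0.11 and -0.13 for Rarg and 0.16 and 0.42 for Rarb. They were 0.05 and 0.06 for Crabp1 and 0.02 and 0.06 for Crabp2.
By experiment, 5 members passed, 6 after centring, after repeated quantile normalization and without transgenic replicate 2 (the sixth was Aldh1a2, at 0.43 in the last), and 5 elsewhere. Aldh1a2 was -0.068 without wildtype replicate 2 (range -0.068 to 0.43). The fits with an array left out had no genotype term, so part of the genotype difference enters their experiment values. Rara was 0.013 after centring, 0.012 after repeated normalization and 0.028 without transgenic replicate 1 (range -0.064 to 0.028). Of the other pathway genes 14 passed by experiment and 7 to 13 with an array left out, the fewest without transgenic replicate 1, with 8 without wildtype replicate 2 and 9 without wildtype replicate 1. By genotype 0 of them passed in any setting.
The filter at the 50th percentile removed Rara. Of the members' genotype values under alternatives 62 kept direction and side of the threshold, 9 changed sign and 5 newly passed. Of their experiment values 62 kept both, 4 changed sign and 3 newly passed. The number of arrays limits the precision, and signal over background is not known.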

Other observations

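Of the interdigital and distal limb list 4 of 9 genes were lower in experiment 1 and 0 higher, beside 20.1% and 19.1% of all probe sets, and the median absolute difference between the experiments was 0.11, as over all probe sets. Among the lower ones were Bmp7, a signal of the interdigital tissue (difference -0.50), Hoxd13, a patterning gene of the digits (-0.44), and Msx2 (-0.33). By genotype without the block, Bmp2 was the 1 gene of this list with a log2 difference beyond 0.2 and an unadjusted p under 0.05, 0.25 higher in the transgenic pools on the log2 scale and 0.18 and 0.33 higher within the experiments (adjusted p = 1 in limma), while Bmp4 and Fgf8 differed by -0.13 and -0.14 and did not pass.

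Of the cartilage list 6 of 7 differed between the experiments, 4 lower and 2 higher in experiment 1, beside 39.2% of all probe sets. Col2a1, the collagen of cartilage whose regulatory sequence drives the transgene, stood at 10.58 (wildtype) and 10.55 (transgenic) in experiment 1 and at 11.68 and 11.87 in experiment 2, a difference of -1.21 (95% interval -1.34 to -1.08, adjusted p = 5.37e-10 in limma). Matn1, a cartilage matrix protein, was 0.39 higher and Acan, the main cartilage proteoglycan, was lower in experiment 1, with a difference of -0.27. By genotype 0 of 7 passed without the block. With the replicate block Matn1 (0.34, adjusted p = 0.0129) and Acan (0.31, adjusted p = 0.0518) passed the same rule, both higher in the transgenic pools, and the genotype difference of Sox6 was 0.12.

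In the epidermis list, the keratins Krt8 and Krt18 of simple epithelia were higher in both transgenic pools, by 0.50 (values of 7.52 and 7.45 in wildtype, 7.95 and 8.02 in transgenic pools of experiments 1 and 2) and by 0.24. With the block the adjusted p was 3.47e-04 for Krt8 and 0.119 for Krt18 in limma. Krt5, Krt14, Krt15 and Trp63 of the same list had genotype differences between -0.05 and 0.02.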
